A study of Mus musculus with 53 samples.

Results

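YM-155 was compared with vehicle in A/J mouse tumours grown from the WGD+ form of the mammary tumour line TA3Hauschka, a form engineered to have undergone whole genome doubling (WGD). The libraries were chosen by their titles: 3 YM-155 tumours and 3 vehicle tumours, 6 libraries of the 24 in the YM-155 experiment and of 53 in the whole series. Cells in Matrigel had been placed in the inguinal mammary fat pads of female A/J mice 6 weeks old, and the treatment lasted 14 days. All 6 tumours share the WGD+ cell line, the A/J host and the injection, and differ in the agent given, whose dose was not given in the sources used here. Other arms of the same experiment serve here for tests of the difference: YM-155 against vehicle in A/J mice bearing WGD- cells, which did not undergo the doubling, and YM-155 against vehicle in NSG mice bearing WGD+ cells, with 3 tumours in each group. NSG mice lack T, B and natural killer cells, and the strain in the labels has the alleles Prkdcscid and Il2rgtm1Wjl on a NOD background, with a transgene for IL3, CSF2 and KITLG under the CMV promoter. The genotype field of the labels follows the treatment and not the title in 12 of the 24 libraries, among them the 3 vehicle libraries here, so the title was used for the groups. Nothing in the labels says whether the tumours came from different mice, so every p-value measures a spread between libraries. That spread was estimated over all 24 libraries of the experiment, so an SE or p-value can differ from that of the 6 libraries alone.

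YM-155 (sepantronium bromide) is a small molecule that was described as a suppressor of survivin transcription. Survivin, the product of Birc5, belongs to the inhibitor of apoptosis proteins and is also a subunit of the chromosomal passenger complex, which corrects attachments of chromosomes to the spindle and is needed for the division of the cell body. The solute carrier encoded by Slc35f2 brings the compound into human cells, and MCL1 loss and DNA damage have also been reported for it. In a tumour of an immunocompetent host, interferon gamma from T and natural killer cells induces IRF1 and, with it, chemokines, guanylate-binding proteins, PD-L1 and the genes of antigen presentation in tumour cells and myeloid cells alike.

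RNA levels are given throughout as deposited, as log2(CPM + 1), where CPM is the read count scaled to library size with TMM (trimmed mean of M values) factors, and a change is the YM-155 mean minus the vehicle mean on that scale. Assigned reads ran from 5.11 to 7.53 M in the 6 libraries, with the lowest in YM-155 replicate 2, and 1 read was worth 0.136 to 0.193 CPM. Of epithelial genes, Krt8 and Epcam, chosen after their values were seen, were high, while the tight junction gene Cldn7 was near the detection limit. Krt8 lay at 9.60, 9.06 and 9.73 in YM-155 tumours, against 9.59, 9.76 and 9.45 in vehicle tumours, and Epcam at 7.96, 8.59 and 7.65 in YM-155 tumours, against 7.97, 8.29 and 8.07 in vehicle tumours. YM-155 replicate 2 sat apart from the other YM-155 libraries. Over the 13826 genes tested its correlation was 0.954 with replicate 1 and 0.956 with replicate 3, whereas those correlated at 0.988 with each other, and the vehicle pairs ran up to 0.987. Of the 6 libraries the closest to YM-155 replicate 2 was vehicle replicate 2, at 0.979. The least alike vehicle pair, replicates 1 and 2, correlated below that value. By a rule of 3 median absolute deviations on the best correlation of each library in the whole table, YM-155 replicate 2 did not stand apart. The first principal component of the 6 libraries held 47.8% of the variance. It placed YM-155 replicates 1, 2 and 3 at -32.8, 47.7 and -30.0, against -0.38, 13.6 and 1.80 for the vehicle libraries. The median SD of a gene within the group was 0.295 in YM-155 tumours and 0.197 in vehicle tumours. YM-155 replicate 2 also had the highest level of the nuclear RNA Malat1, with 8.49, 11.53 and 9.50 in YM-155 tumours, against 9.51, 10.43 and 9.42 in vehicle tumours, and the lowest level of basal keratin Krt5, with 10.03, 7.34 and 9.66 in YM-155 tumours, against 9.33, 9.82 and 10.51 in vehicle tumours. The part of these features in the results was not tested. Since the labels give no reason to leave the library out, all 6 libraries enter each value unless it is given as one without replicate 2.

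Of 13826 genes, 0 were called at an adjusted p under 0.05 (limma with Benjamini-Hochberg adjustment), which is 0.0% in either direction, and the smallest adjusted p was 1. At an unadjusted limma p under 0.05 stood 445 genes, 3.22% of those tested, 166 of them (1.20%) with a higher and 279 (2.02%) with a lower mean in YM-155 tumours. The YM-155 and vehicle libraries did not overlap for 403 genes that were higher (2.91%) and 554 that were lower (4.01%), 6.92% of all genes together. A test on whole reads recovered from the deposited values (limma-voom) also called 0 genes, with 536 at an unadjusted p under 0.05. The values that follow therefore describe these tumours, and no member of the 38 gene lists passed the test with all 6 libraries.

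The gene of the compound's first described target did not differ beyond its error. Birc5 (protein coding, chr11:117849251-117855743 on the plus strand of mm10, GENCODE M21) had levels of 7.25, 7.18 and 7.08 in YM-155 tumours, against 6.64, 7.43 and 7.23 in vehicle tumours. The groups overlapped, with YM-155 tumours between the lowest and the highest vehicle tumour, and the change was 0.069 (SE 0.18, 95% interval -0.31 to 0.45). The bounds of that interval limit a change of Birc5 RNA in the bulk tumour. RNA from fewer cells of a type and less RNA per cell cannot be told apart in such bulk samples, for this gene and for those below. The Birc5 promoter of RefSeq (GRCm38.p6, chr11:117848987-117849286, plus strand, 250 bases before to 50 after the start) is shown because the compound was described as acting on transcription from it. Capitals mark the letters TTTAAA, the only match to the cell cycle homology region forms searched, which were TTTGAA on either strand, the palindrome TTTAAA on both, and the palindrome TTCGAA on both. Such letters occur in 28.8% of all 32851 RefSeq promoters of that length.
Birc5: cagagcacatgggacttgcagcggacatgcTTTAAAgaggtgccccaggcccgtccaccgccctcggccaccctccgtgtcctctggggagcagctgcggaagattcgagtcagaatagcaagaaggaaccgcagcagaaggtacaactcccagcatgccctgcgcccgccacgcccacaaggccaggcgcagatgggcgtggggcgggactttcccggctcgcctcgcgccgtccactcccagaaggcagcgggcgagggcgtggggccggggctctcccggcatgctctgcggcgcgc

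The other inhibitors of apoptosis also held no gene that passed. In the list of 8 genes of survivin, its relatives and their antagonists, 0 of 8 stood at an unadjusted p under 0.05, the median change was -0.025 beside -0.015 over all genes tested, and the changes ran from -1.0 to 0.069. Xiap, which blocks effector caspases, was at 5.94, 5.87 and 5.85 in YM-155 tumours, against 6.07, 5.71 and 5.94 in vehicle tumours, a change of -0.017 (SE 0.14). The giant ubiquitin ligase Birc6 was at 6.57, 6.55 and 6.56 in YM-155 tumours, against 6.75, 6.40 and 6.59 in vehicle tumours, and for both genes the groups overlapped. Birc2 and Birc3, which encode ubiquitin ligases of tumour necrosis factor receptor signalling, had changes of -0.023 (SE 0.25) and -0.22 (SE 0.24), that of Birc2 being 0.0033 after quantile normalization, and both were highest or second highest in YM-155 replicate 2. Naip2, a sensor of bacterial proteins in the inflammasome, was near the detection limit at 0.52, 0.97 and 1.18 in YM-155 tumours, against 1.15, 0.40 and 1.02 in vehicle tumours. Diablo, whose product binds and releases these inhibitors from caspases, was at 5.27, 5.74 and 5.33 in YM-155 tumours, against 5.26, 5.83 and 5.60 in vehicle tumours. The member with the lowest change was Xaf1, an interferon-inducible antagonist of XIAP, with 2.68, 4.72 and 3.47 in YM-155 tumours, against 5.25, 4.01 and 4.58 in vehicle tumours, a change of -1.0 (SE 0.53). YM-155 replicates 1 and 3 lay below all vehicle libraries for Xaf1 and replicate 2 within them, and without replicate 2 the list median was -0.14.

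The partners of survivin in mitosis and the proteins named for the compound did not pass the test either. In the chromosomal passenger complex list 0 of 7 genes stood at an unadjusted p under 0.05, with a median change of 0.023 and a range of -0.11 to 0.18. The kinase gene Aurkb was at 6.86, 5.98 and 6.82 in YM-155 tumours, against 6.44, 6.20 and 6.47 in vehicle tumours, a change of 0.18 (SE 0.19). The scaffold gene Incenp was at 7.70, 6.98 and 7.61 in YM-155 tumours, against 7.25, 7.54 and 7.43 in vehicle tumours, and Cdca8, which encodes borealin, had a change of -0.053 (SE 0.16). YM-155 replicate 2 was the lowest of the YM-155 tumours for Aurkb, Incenp and Cdca8. The shugoshin genes Sgo1 and Sgo2a, which recruit the complex to centromeres, had a change of -0.11 (SE 0.18) and -0.047 (SE 0.14), and Haspin, the histone H3 kinase that marks its landing site, one of 0.12 (SE 0.27). Slc35f2, the gene of the importer, was low, at 1.92, 1.35 and 2.49 in YM-155 tumours, against 2.0, 1.75 and 2.54 in vehicle tumours, a change of -0.18 (SE 0.36). Mcl1, an antiapoptotic BCL2 relative, was at 8.18, 8.23 and 8.28 in YM-155 tumours, against 8.21, 8.18 and 8.02 in vehicle tumours, a change of 0.095 (SE 0.14). Sp1, a transcription factor gene, had a change of -0.17 (SE 0.16). The groups overlapped for each of these 3 genes, and their list of 4 had a median change of -0.11. Without YM-155 replicate 2 the median was 0.10 for that list and 0.063 for the chromosomal passenger complex.

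**Figure D1:**
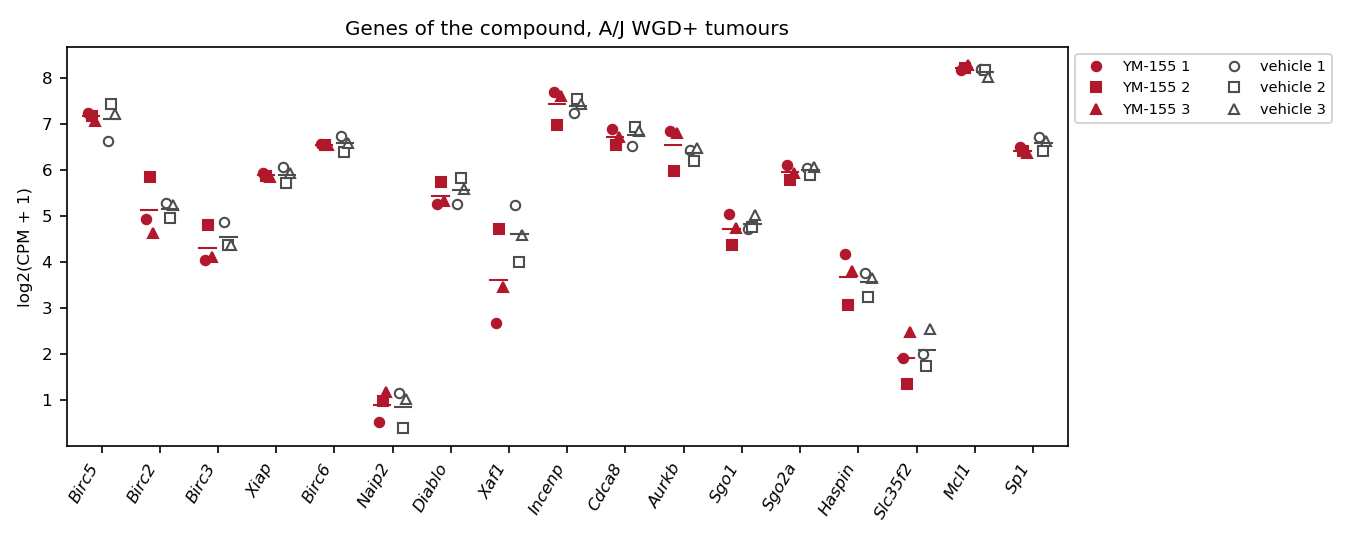
RNA level, as log2(CPM + 1), of 17 genes of the compound lists in each A/J WGD+ tumour. Filled red symbols are the YM-155 tumours, open grey symbols the vehicle tumours, the shape marks the replicate number and the lines are group means. The groups overlap for each gene shown, and Xaf1 shows the widest spread, from 2.68 in YM-155 replicate 1 to 5.25 in vehicle replicate 1.

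Genes of cell death and of the damage response held no call. In the apoptosis list, 19 of 20 genes were tested, and the median change was -0.15. At an unadjusted p under 0.05 stood 1 of 19 with a higher and 1 of 19 with a lower mean, beside 1.20% and 2.02% of all genes. Of the 19 changes 14 were below 0, beside 7333 of 13826 over all genes tested. The groups did not overlap for 4 of 19 genes that were lower and 1 of 19 that was higher, beside 4.01% and 2.91% of all genes. Bcl2, the founding antiapoptotic gene of its family, was at 3.85, 4.18 and 4.24 in YM-155 tumours, against 3.21, 3.72 and 3.57 in vehicle tumours, and every YM-155 tumour lay above every vehicle tumour (change 0.59, SE 0.20). In the p53 target list 0 of 16 stood at an unadjusted p under 0.05 and the median change was -0.067. Bax, a proapoptotic p53 target, was at 7.72, 8.82 and 7.84 in YM-155 tumours, against 8.34, 8.55 and 8.31 in vehicle tumours, with replicate 2 the highest of all 6 tumours. Ccng1, the cyclin G1 gene, had a change of -0.25 (SE 0.24). The 16 genes of the DNA damage response had a median change of -0.029, among them Rpa1, of the single-strand binding complex, with -0.24 (SE 0.13), and the checkpoint kinase gene Chek1 with 0.24 (SE 0.18). Without YM-155 replicate 2 the median was -0.26 for the p53 targets and 0.074 for the DNA damage response.

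Proliferation genes lay close to vehicle. The 18 genes of the mitotic G2/M list had mean levels of 7.23, 6.70 and 7.08 in YM-155 tumours, against 6.89, 7.0 and 7.08 in vehicle tumours and a median change of 0.0091, and the 18 genes of the S phase list had 6.77, 6.38 and 6.44 in YM-155 tumours, against 6.37, 6.56 and 6.63 in vehicle tumours and a median of 0.01. Neither list held a gene at an unadjusted p under 0.05. YM-155 replicate 2 was the lowest of the YM-155 tumours for 15 of the 18 G2/M genes, against 41.4% of all genes tested, and without it the medians were 0.15 for G2/M and 0.12 for S phase. By size of p the leading genes were Bub1, a spindle checkpoint kinase gene, with a change of -0.20 (SE 0.16), and Cenpe, a kinetochore motor gene, with 0.10 (SE 0.17), then Cdc6 and Mcm4, both of replication licensing, with 0.20 (SE 0.22) and -0.15 (SE 0.19).

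Stress and metabolic programmes were flat or leaned lower without passing. The 14 genes of the NRF2 and glutathione list had a median change of 0.0093, with Me1, malic enzyme, at -0.26 (SE 0.19) and Nqo1, quinone reductase, at 0.22 (SE 0.23). The integrated stress and unfolded protein list of 15 had a median of 0.017, with the serine synthesis gene Phgdh at -0.25 (SE 0.15) and the degradation factor gene Herpud1 at 0.18 (SE 0.17). The 10 heat shock genes had a median of -0.10, with the chaperone genes Dnajb1 at -0.32 (SE 0.29) and Hspa1a at -0.37 (SE 0.38). Hypoxia and glycolysis genes were lower in mean for 14 of 14 genes tested, with a median of -0.35, beside 7333 of 13826 genes below 0 overall. Car9, carbonic anhydrase IX, was at 5.56, 5.01 and 5.67 in YM-155 tumours, against 6.74, 5.97 and 6.08 in vehicle tumours, with no overlap, a change of -0.85 (SE 0.41). Egln3, an oxygen-sensing hydroxylase gene, was at 5.99, 5.36 and 6.68 in YM-155 tumours, against 7.20, 6.29 and 6.72 in vehicle tumours, a change of -0.73 (SE 0.38). The mean level of the hypoxia list was 7.85, 7.48 and 8.42 in YM-155 tumours, against 8.65, 8.10 and 8.27 in vehicle tumours, lowest in YM-155 replicate 2 and highest in vehicle replicate 1, and without YM-155 replicate 2 the median change was -0.18. Cholesterol synthesis genes were lower in mean for 11 of 11, with a median of -0.14, Fdft1 (squalene synthase) at -0.27 (SE 0.20) and Idi1 (isopentenyl isomerase) at -0.34 (SE 0.27). The respiratory chain list of 15 had a median of -0.032, with Sdha at -0.13 and Cox5a at -0.16, subunits of complexes II and IV. Ribosomal protein genes had 0.04, with Rplp0 at 0.12 and Rpl32 at 0.14, and proteasome genes -0.013, with Psmb5 at 0.20 and Psmd14 at -0.16. In these 3 lists 0 genes stood at an unadjusted p under 0.05. Without YM-155 replicate 2 the median was 0.10 for the NRF2 list, 0.14 for the integrated stress list, -0.066 for heat shock, -0.011 for the respiratory chain and -0.061 for the proteasome.

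Interferon genes and their antigen presentation targets were spread widely within each group. For the 17 genes of the interferon gamma list the mean level was 2.35, 4.48 and 2.69 in YM-155 tumours, against 5.87, 3.0 and 4.49 in vehicle tumours. Vehicle tumours thus covered the range from 3.0 to 5.87, and YM-155 replicate 2 fell inside it whereas replicates 1 and 3 lay below it. All 17 changes were below 0, beside 7333 of 13826 over all genes tested, with a median of -1.45 and a range of -1.92 to -0.015. At an unadjusted p under 0.05 stood 4 of 17, beside 2.02% of all genes in that direction. No overlap between groups was seen for 1 of 17, lower, beside 4.01% of all genes. The SD of this list's mean level was 1.43 in vehicle and 1.14 in YM-155 tumours here. It was 0.30 and 1.74 in A/J WGD- vehicle and YM-155 tumours, and 0.046 to 0.22 in the NSG groups. The fit pools these groups, so an SE of such genes can understate the spread of the 6 tumours. The 20 type I interferon genes had 3.06, 5.07 and 3.72 in YM-155 tumours, against 5.69, 3.85 and 4.76 in vehicle tumours, all 20 changes below 0, a median of -0.81, and 0 of 20 at an unadjusted p under 0.05. The 13 MHC class I presentation genes had 5.60, 7.69 and 6.11 in YM-155 tumours, against 8.23, 6.70 and 7.49 in vehicle tumours, a median change of -1.01 and 3 of 13 at an unadjusted p under 0.05, all lower. The 7 MHC class II genes had 1.76, 4.97 and 1.92 in YM-155 tumours, against 5.47, 3.59 and 4.23 in vehicle tumours, a median of -1.44 and 2 of 7 at an unadjusted p under 0.05, both lower. These 4 lists hold 56 genes, since Ciita is in 2 of them. Their order over the libraries was nearly the same from gene to gene: YM-155 replicate 2 was the highest YM-155 tumour for 56 of 56 genes (42.4% of all genes tested), vehicle replicate 1 the highest vehicle tumour for 56 of 56 (36.6%), and vehicle replicate 2 the lowest vehicle tumour for 51 of 56 (38.0%). YM-155 replicates 1 and 3 lay below all 3 vehicle tumours for 42 of 56 genes, beside 17% of all genes. The genes share their libraries and are not independent of each other, so these counts describe the 6 tumours.

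**Figure D2:**
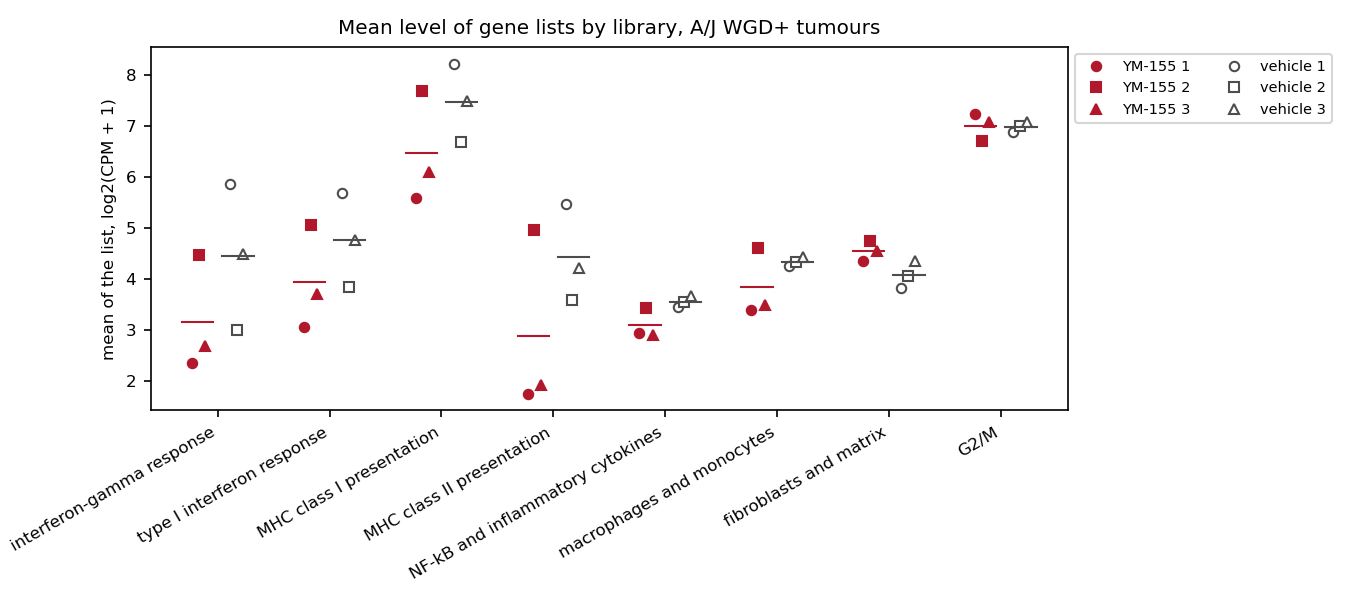
Mean level of 8 gene lists, as log2(CPM + 1), in each A/J WGD+ tumour. Filled red symbols are YM-155 tumours and open grey symbols vehicle tumours, the shape marks the replicate number and the lines are group means. YM-155 replicate 2 lies among or above the vehicle tumours for the interferon, MHC and macrophage lists, and the other YM-155 tumours below them.

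Among single genes, Socs1, the feedback inhibitor of interferon receptor kinases, was at 2.5, 4.70 and 2.89 in YM-155 tumours, against 4.57, 4.34 and 4.31 in vehicle tumours. Its vehicle tumours lay close together, YM-155 replicate 2 lay above them and the other YM-155 tumours below, so that the change of -1.04 (SE 0.41) averages tumours on either side of vehicle. Cd274, which encodes the checkpoint ligand PD-L1, was at 2.02, 3.44 and 1.56 in YM-155 tumours, against 5.13, 2.56 and 3.69 in vehicle tumours, a change of -1.45 (SE 0.64). Of the genes given next, those without a rank by p within their list were chosen after their values were seen, as examples of function. The transcription factor gene Irf1 was at 5.40, 6.85 and 5.55 in YM-155 tumours, against 7.94, 6.17 and 6.89 in vehicle tumours, a change of -1.07 (SE 0.53). The chemokine genes Cxcl9 and Cxcl10 attract T cells. Cxcl9 was at 0.20, 4.54 and 0.88 in YM-155 tumours, against 5.37, 1.07 and 4.10 in vehicle tumours, and Cxcl10 at 2.74, 5.26 and 2.34 in YM-155 tumours, against 5.82, 3.78 and 5.11 in vehicle tumours. For both genes vehicle replicate 1 was the highest tumour and YM-155 replicates 1 and 3 the lowest. Gbp2, a guanylate-binding protein gene of cell-autonomous defence, was at 2.74, 5.20 and 3.81 in YM-155 tumours, against 7.75, 3.73 and 5.85 in vehicle tumours. Nos2, inducible nitric oxide synthase, was the only gene of the list whose groups did not overlap, at 2.17, 2.54 and 2.53 in YM-155 tumours, against 4.71, 3.32 and 3.18 in vehicle tumours (change -1.32, SE 0.62). In the type I list, Mx1 and Isg15, an antiviral GTPase and a ubiquitin-like modifier, had a change of -0.97 (SE 0.47) and -0.91 (SE 0.45) without passing the test. The mRNA of interferon gamma itself, Ifng, was near the detection limit, at 0.00, 0.25 and 0.00 in YM-155 tumours, against 1.73, 0.00 and 0.53 in vehicle tumours.

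The RefSeq promoters of 4 of these genes are shown as examples that hold a match, so they do not stand for the list. Each is from GRCm38.p6, 250 bases before to 50 after the start, read on the strand of the gene. Capitals mark matches to the gamma-activated site TTCNNNGAA, which reads the same on both strands, or to the interferon-stimulated response element core, which is GAAA followed by any 2 bases and GAAA again, searched on both strands. Socs1 is at chr16:10785487-10785786 on the minus strand, with matches to the response element core that overlap. Irf1 is at chr11:53769764-53770063 on the plus strand, with a gamma-activated site, and a further RefSeq start of Irf1 has no match. Cxcl10 is at chr5:92348840-92349139 on the minus strand and Gbp2 at chr3:142620413-142620712 on the plus strand, each with a response element core.
Socs1: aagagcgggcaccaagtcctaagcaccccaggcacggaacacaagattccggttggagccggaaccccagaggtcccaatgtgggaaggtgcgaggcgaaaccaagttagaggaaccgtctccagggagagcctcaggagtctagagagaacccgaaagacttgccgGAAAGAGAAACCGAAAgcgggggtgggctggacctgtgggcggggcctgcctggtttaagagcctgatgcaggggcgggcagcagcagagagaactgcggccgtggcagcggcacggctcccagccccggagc
Irf1: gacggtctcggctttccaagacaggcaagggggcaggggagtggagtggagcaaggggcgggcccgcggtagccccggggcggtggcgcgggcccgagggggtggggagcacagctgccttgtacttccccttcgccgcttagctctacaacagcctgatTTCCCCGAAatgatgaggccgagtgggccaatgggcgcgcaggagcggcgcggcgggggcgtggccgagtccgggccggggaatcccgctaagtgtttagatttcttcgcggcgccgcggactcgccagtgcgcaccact
Cxcl10: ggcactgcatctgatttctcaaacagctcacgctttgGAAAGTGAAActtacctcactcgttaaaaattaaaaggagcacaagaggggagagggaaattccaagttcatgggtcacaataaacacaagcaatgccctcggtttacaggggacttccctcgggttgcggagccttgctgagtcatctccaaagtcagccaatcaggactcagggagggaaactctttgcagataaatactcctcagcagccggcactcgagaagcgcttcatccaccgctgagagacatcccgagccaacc
Gbp2: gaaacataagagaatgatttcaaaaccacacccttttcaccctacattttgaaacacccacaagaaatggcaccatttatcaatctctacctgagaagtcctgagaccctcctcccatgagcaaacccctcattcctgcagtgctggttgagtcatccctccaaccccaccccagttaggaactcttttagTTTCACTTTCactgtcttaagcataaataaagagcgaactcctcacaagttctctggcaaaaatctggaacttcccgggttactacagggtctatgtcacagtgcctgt
The response element core occurred in 3.44% of all 32851 RefSeq promoters and the gamma-activated site in 8.30%. In the interferon gamma list, 11 of 17 genes matched the promoter table with 14 promoters, 7 of which held the core and 4 the gamma-activated site. In the type I list, 15 of 20 genes matched with 16 promoters, 9 with the core and 3 with the gamma-activated site. The MHC class I list had 3 of 13 promoters with the core and 1 of 13 with the gamma-activated site, and the MHC class II list 0 of 5 with either. The lone promoter of Cd274 held neither. A match is a description of letters in this window.

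Antigen presentation genes followed the same order of tumours. H2-K1, a class I heavy chain gene, was at 8.61, 11.01 and 9.33 in YM-155 tumours, against 11.42, 9.91 and 10.65 in vehicle tumours, and B2m, its light chain, at 7.71, 9.61 and 8.08 in YM-155 tumours, against 10.10, 8.78 and 9.42 in vehicle tumours. Tap1, the peptide transporter, was at 4.76, 7.34 and 5.55 in YM-155 tumours, against 8.35, 5.96 and 7.31 in vehicle tumours. YM-155 replicates 1 and 3 lay below all vehicle tumours for these 3 genes, and replicate 2 between vehicle tumours. By size of p the leading genes were Erap1, the trimming aminopeptidase, at 5.04, 5.55 and 5.08 in YM-155 tumours, against 6.63, 5.42 and 6.17 in vehicle tumours (change -0.85, SE 0.34), and Psme1, a proteasome activator subunit, at 6.82, 7.85 and 6.88 in YM-155 tumours, against 8.12, 7.52 and 7.78 in vehicle tumours (change -0.63, SE 0.25). In class II the leading genes were H2-DMb1, of the peptide exchange factor, with a change of -1.38 (SE 0.58), and Ciita, the master regulator, at 0.37, 2.03 and 0.19 in YM-155 tumours, against 3.88, 0.96 and 2.08 in vehicle tumours (change -1.44, SE 0.65). Cd74, the invariant chain, was at 3.03, 7.10 and 3.10 in YM-155 tumours, against 7.44, 5.60 and 6.29 in vehicle tumours, and H2-Ab1 at 1.53, 6.86 and 2.45 in YM-155 tumours, against 6.25, 5.07 and 5.16 in vehicle tumours. For H2-Ab1 the highest of all 6 tumours was YM-155 replicate 2 and the 2 lowest were the other YM-155 tumours.

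**Figure D3:**
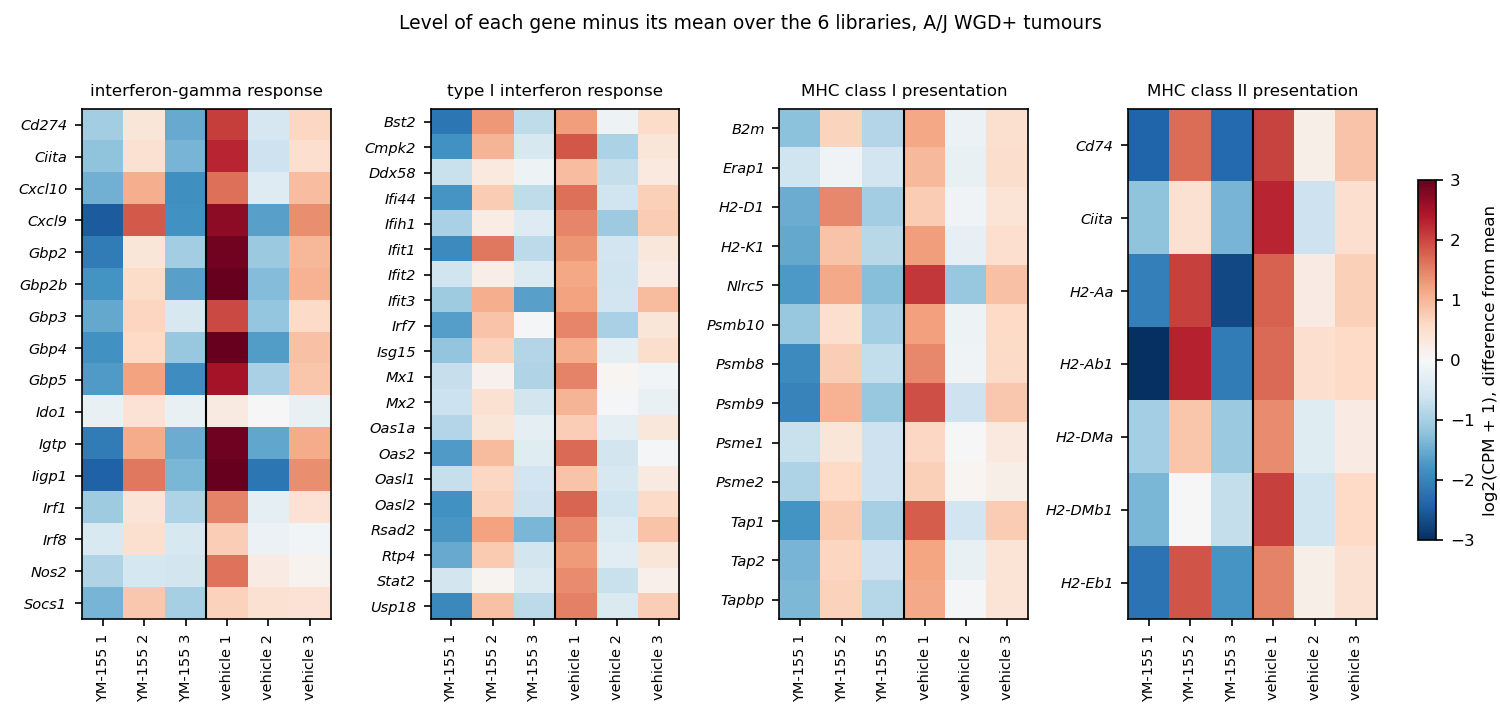
Level of tested genes of the interferon and MHC lists in each A/J WGD+ tumour, minus its mean over the 6 libraries, as a difference in log2(CPM + 1). Columns are tumours, YM-155 left of the black line and vehicle right of it, and colours reach their limit at a difference of 3. YM-155 replicates 1 and 3 are blue for nearly every gene, YM-155 replicate 2 and vehicle replicate 1 mostly red.

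Inflammatory and immune cell genes overlapped with this pattern. The NF-kB and cytokine list of 16 had a median change of -0.49. At an unadjusted p under 0.05 stood 4 of 16, all lower, beside 2.02% of all genes. Without overlap were 3 of 16, all lower, beside 4.01% of all genes. Ccl2, a monocyte chemokine gene, was at 2.58, 3.70 and 2.75 in YM-155 tumours, against 3.77, 3.82 and 4.53 in vehicle tumours, with no overlap (change -1.03, SE 0.43). Nfkb2, of the noncanonical pathway, was at 6.52, 7.02 and 6.67 in YM-155 tumours, against 7.02, 7.21 and 7.20 in vehicle tumours (change -0.41, SE 0.17). Il1rn, the interleukin-1 receptor antagonist gene, was at 2.30, 3.12 and 2.30 in YM-155 tumours, against 4.03, 3.39 and 3.78 in vehicle tumours, also without overlap. The 14 macrophage and monocyte markers had 3.40, 4.62 and 3.50 in YM-155 tumours, against 4.27, 4.35 and 4.43 in vehicle tumours, so YM-155 replicate 2 was the highest tumour and the others the lowest. The median change of that list was -0.61, or -1.01 without YM-155 replicate 2, and its summed level ran over 202 to 647 CPM in YM-155 tumours, against 386 to 490 CPM in vehicle tumours. Cd68, a lysosomal macrophage marker, had a change of -0.75 (SE 0.34), and the scavenger receptor gene Msr1 one of -0.84 (SE 0.42). C1qa, of complement, was at 4.86, 7.40 and 5.46 in YM-155 tumours, against 6.23, 6.69 and 6.40 in vehicle tumours. The part of the macrophage markers in the interferon and MHC values was not tested.

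The defining T and B cell markers were at or near the detection limit. In the T cell list 6 of 11 markers were tested, with a summed level of 32.5 to 44.6 CPM in YM-155 tumours, against 32.8 to 39.0 CPM in vehicle tumours. The defining receptor genes Cd3d, Cd3e and Cd3g were under the filter, at 0 to 0.66 in YM-155 tumours and at 0 to 0.67 in vehicle tumours. Most of the summed level came from Foxp3 and Lck, at 3.99, 4.87 and 4.06 in YM-155 tumours, against 3.97, 4.45 and 4.07 in vehicle tumours for Foxp3 and 4.16, 3.51 and 4.01 in YM-155 tumours, against 4.21, 3.75 and 4.01 in vehicle tumours for Lck. In NSG tumours, whose hosts lack T cells, the group means were 3.68 to 3.84 for Foxp3 and 3.61 to 4.09 for Lck. Cd2 and Cd4 had a change of 0.39 (SE 0.28) and -0.38 (SE 0.36), and the list had a median of -0.055. Of the cytotoxic lymphocyte list 8 of 10 were tested, with a summed level of 38.4 to 40.1 CPM in YM-155 tumours, against 28.7 to 39.0 CPM in vehicle tumours, and a median change of -0.28. Most of that sum came from the receptor gene Klrb1c, chosen after its values were seen, at 5.16, 4.84 and 5.20 in YM-155 tumours, against 4.69, 5.09 and 4.64 in vehicle tumours, and Gzma, Gzmb, Prf1, Nkg7, Klrk1 and Ifng were at 0 in YM-155 replicate 1. Prf1, the perforin gene, was at 0.00, 1.11 and 0.00 in YM-155 tumours, against 1.06, 1.61 and 0.91 in vehicle tumours, and Eomes, a lymphocyte transcription factor gene, at 2.22, 2.84 and 1.81 in YM-155 tumours, against 1.78, 1.45 and 1.46 in vehicle tumours, without overlap. NSG tumours had group means of 4.11 to 4.54 for Klrb1c and 2.13 to 3.01 for Eomes. The summed levels of the T cell and cytotoxic lists are therefore not a measure of lymphocytes. Of the B and plasma cell markers 2 of 9 were tested. Ms4a1 and Pax5 were at 0 in all 6 libraries, and Jchain was at 0.00, 2.10 and 0.36 in YM-155 tumours, against 0.18, 0.71 and 0.20 in vehicle tumours, with Mzb1 at 0.20, 1.23 and 0.19 in YM-155 tumours, against 0.35, 0.21 and 0.53 in vehicle tumours. The dendritic cell list had a median of -0.18 over 6 of 10 markers, led by Itgax at 1.46, 3.80 and 1.87 in YM-155 tumours, against 3.70, 3.13 and 3.25 in vehicle tumours and Ccr7 at 0.20, 0.82 and 0.00 in YM-155 tumours, against 0.49, 0.71 and 0.79 in vehicle tumours. Neutrophil markers had -0.49 over 8 of 10, 3 of them lower without overlap beside 4.01% of all genes, with Mmp9 at -0.71 (SE 0.47) and Csf3r at -0.48 (SE 0.38). The checkpoint list had -0.28 over 7 of 9, with Cd86, a ligand of CD28 and CTLA4, at -0.40 (SE 0.31). Without YM-155 replicate 2 the median was -0.62 for cytotoxic lymphocytes, -0.18 for B and plasma cells, -0.45 for dendritic cells and -0.49 for checkpoints.

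Most matrix genes had a higher mean in YM-155 tumours without passing the test. The 12 fibroblast and matrix markers had 4.37, 4.74 and 4.56 in YM-155 tumours, against 3.83, 4.06 and 4.36 in vehicle tumours, with a median change of 0.30. Of the 12 changes 11 were above 0, beside 6484 of 13826 over all genes tested. At an unadjusted p under 0.05 stood 1 of 12, higher, beside 1.20% of all genes. Without overlap were 3 of 12, all higher, beside 2.91% of all genes. Without YM-155 replicate 2 the list median was 0.15. Lum, a collagen-binding proteoglycan gene, was at 1.46, 0.82 and 2.17 in YM-155 tumours, against 0.35, 0.21 and 0.37 in vehicle tumours, a change of 1.18 (SE 0.51). Its relative Dcn, decorin, was at 3.6, 3.39 and 3.72 in YM-155 tumours, against 1.60, 1.82 and 2.65 in vehicle tumours, a change of 1.54 (SE 0.85). Col3a1, a fibrillar collagen gene chosen after its values were seen, was at 5.90, 5.28 and 6.37 in YM-155 tumours, against 4.33, 4.14 and 4.71 in vehicle tumours. Every YM-155 tumour lay above every vehicle tumour for these 3 genes, YM-155 replicate 2 included. Their SEs pool the spread of all 24 libraries. For Dcn the SD was 0.17 in YM-155 and 0.55 in vehicle tumours here, against 2.82 in A/J WGD- vehicle tumours. For Col3a1 the SD was 0.55, 0.29 and 3.47 in the same order of groups. The SEs of these genes thus rest partly on that other arm. A fit of the 6 tumours alone called 0 genes, so these genes did not pass without that arm either. The mesenchymal transition list of 12 had a median of -0.053, with Tgfbi, a matrix protein gene induced by TGF-beta, at 3.99, 5.71 and 4.19 in YM-155 tumours, against 5.67, 5.32 and 5.91 in vehicle tumours (change -1.0, SE 0.44) and N-cadherin, Cdh2, at 0.68 (SE 0.39). The epithelial list of 12 had a median of -0.18. By size of p it was led by Cldn7 with a change of -0.59 (SE 0.31) and the splicing regulator gene Esrp1 with 0.32 (SE 0.20). Cldn7 was near the detection limit, at 0.91, 1.11 and 0.00 in YM-155 tumours, against 1.15, 1.61 and 1.02 in vehicle tumours. The epithelial median without YM-155 replicate 2 was -0.11.

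Among the genes whose groups did not overlap and whose higher group mean was at least 3, those with the smallest p were as follows, as values and not as calls. Below that level stood, among others and chosen after its values were seen, Scimp, an adaptor gene of antigen-presenting cells, at 0.52, 1.35 and 0.36 in YM-155 tumours, against 2.26, 2.26 and 1.97 in vehicle tumours (change -1.42, SE 0.32), with a smaller p than the lower genes named next. On the higher side, Mex3a, an RNA-binding ubiquitin ligase gene, was at 6.53, 6.29 and 6.48 in YM-155 tumours, against 5.72, 5.99 and 5.83 in vehicle tumours (change 0.58, SE 0.13). Slc9a3r2, a scaffold of membrane transporters, was at 4.02, 3.97 and 3.92 in YM-155 tumours, against 3.17, 3.32 and 3.11 in vehicle tumours (change 0.77, SE 0.19). Cd24a, the gene of a glycosylated surface protein, was at 6.93, 5.59 and 6.38 in YM-155 tumours, against 5.17, 5.40 and 5.20 in vehicle tumours (change 1.04, SE 0.26). The others on that side were Dnajc22 (0.59), Mfhas1 (0.72), Basp1 (0.45), Bcl2 given above, the YAP pathway regulator gene Amotl2 (0.64), the GTPase-activating protein gene Arhgap28 (0.76) and the receptor phosphatase gene Ptprk (0.46). On the lower side, Rasa4, a Ras GTPase-activating gene, was at 2.97, 3.65 and 3.62 in YM-155 tumours, against 4.59, 4.19 and 4.23 in vehicle tumours (change -0.92, SE 0.25). Itgal, the leukocyte integrin alpha chain, was at 1.46, 2.39 and 1.42 in YM-155 tumours, against 3.32, 3.07 and 2.84 in vehicle tumours (change -1.32, SE 0.36). Lgr6, an R-spondin receptor gene, was at 3.35, 2.39 and 2.95 in YM-155 tumours, against 3.91, 3.61 and 3.91 in vehicle tumours (change -0.91, SE 0.26). The rest were Exoc6 (-0.66), the zinc importer gene Slc39a4 (-0.80), the urate transporter gene Slc2a9 (-0.85), Arhgdib (-0.85), an inhibitor of GTPase nucleotide exchange rich in blood cells, St6galnac4 (-0.52), Gpr35 (-0.90) and the selenocysteine lyase gene Scly (-0.58).

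**Figure D4:**
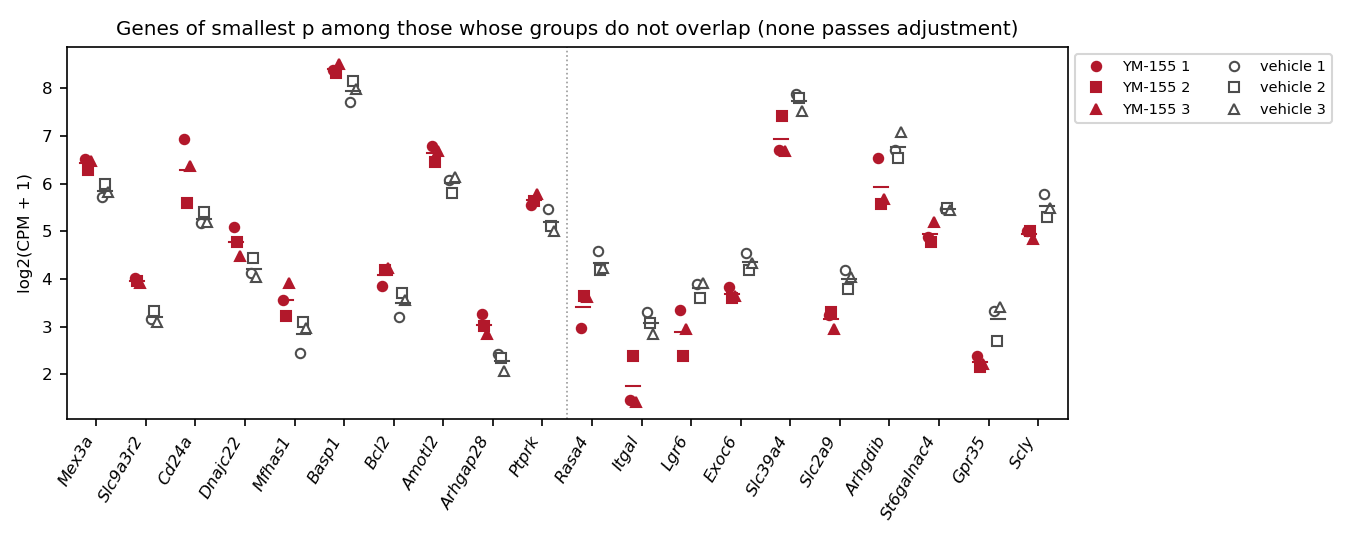
RNA level, as log2(CPM + 1), in each A/J WGD+ tumour of the 10 genes with a higher mean (left of the dotted line) and the 10 with a lower mean in YM-155 tumours that have the smallest p among genes without overlap and with a higher group mean of at least 3. Filled red symbols are YM-155 tumours, open grey symbols vehicle tumours, lines are group means. By the rule that chose them the groups are apart for each gene, and none of the 20 passes the adjusted test.

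Leaving out YM-155 replicate 2 changed the count of calls, so 1 library decided it. With the other 23 libraries in the model, 12 genes passed at an adjusted p under 0.05 (limma), 0.0868% of those tested, of which 4 (0.0289%) rose and 8 (0.0579%) fell. They rest on a YM-155 group of 2 tumours, and apart from Cd24a and Socs1 they were chosen after their values were seen. Those that rose were Cd24a (change 1.39, adjusted p = 0.0307), Nkd2, a Wnt antagonist gene (1.24, adjusted p = 0.0347), Ankrd13b (0.89) and the polarity gene Dlg5 (0.79). Those that fell were the growth factor gene Igf1 (-1.93, adjusted p = 0.0307), the ganglioside activator gene Gm2a (-1.29), Naglu, a lysosomal enzyme gene (-1.09), the activin antagonist gene Fst (-1.29), Socs1 (-1.71, adjusted p = 0.0458), the interferon-inducible nuclear body gene Sp110 (-2.02), the osteoclast fusion gene Ocstamp (-2.19) and Scimp (-1.73). Igf1 was at 4.92, 6.65 and 4.72 in YM-155 tumours, against 6.44, 7.32 and 6.48 in vehicle tumours, with replicate 2 among the vehicle tumours, and Nkd2, at 9.11, 6.81 and 8.61 in YM-155 tumours, against 7.61, 7.46 and 7.80 in vehicle tumours, has replicate 2 below and the other YM-155 tumours above all vehicle tumours. With only the other 5 libraries in the model 155 genes were called, 40 higher and 115 lower. YM-155 replicate 2 was singled out by its values in these same data, so the adjusted p-values without it can be too small. Without replicate 2 the median change of the interferon gamma list was -2.03, of the type I list -1.43, of MHC class I -1.62 and of MHC class II -2.69, and of all genes -0.0075. Of the 56 genes of those lists, 1, Socs1, passed.

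The response was then set against that of WGD- tumours in the same host and of WGD+ tumours in NSG mice, which share no library with it. In A/J WGD- tumours 579 genes were called, 4.19% of those tested, 307 higher (2.22%) and 272 lower (1.97%), and in NSG WGD+ tumours 1 gene was called (0.00723%). The test of the difference itself called 0 of 13826 genes (0.0%) for A/J WGD+ minus A/J WGD-, with 1650 (11.9%) at an unadjusted limma p under 0.05, and 0 of 13826 (0.0%) for A/J WGD+ minus NSG WGD+, with 1156 (8.36%). The response of the doubled tumours in A/J mice was therefore not shown to differ from either, despite the unequal counts of calls. For the interferon gamma list the median change was -1.45 in A/J WGD+ tumours, -2.27 in A/J WGD- tumours and -0.05 in NSG WGD+ tumours. For MHC class I the medians were -1.01, -1.57 and 0.34, and for MHC class II -1.44, -2.11 and -0.12, in the same order of arms. In the difference from A/J WGD- 2 of 17 interferon gamma genes stood at an unadjusted p under 0.05, beside 11.9% of all genes, and in the difference from NSG WGD+ 1 of 17, beside 8.36%, so both shares are near the background. For MHC class I it was 0 of 13 beside 11.9%, and 4 of 13 beside 8.36%. Socs1 had a change of -1.04 in A/J WGD+ tumours, -1.86 in A/J WGD- tumours and 0.58 in NSG WGD+ tumours.

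The medians of proliferation and matrix lists also differed between arms, without a test of the medians. The G2/M list stood at 0.0091 in A/J WGD+ tumours, 0.46 in A/J WGD- tumours and -0.029 in NSG WGD+ tumours, the S phase list at 0.01, 0.37 and 0.034 in the same order of arms, and 6 of 18 G2/M genes stood at an unadjusted p under 0.05 in the difference from A/J WGD-, beside 11.9% of all genes. Birc5 had a change of 0.069, -0.023 and 0.32 in the same order of arms, and Aurkb of 0.18, 1.05 and 0.23, the second of which passed within its own arm (limma, adjusted p = 0.0163). The difference between arms for Aurkb did not pass, with -0.87 for A/J WGD+ minus A/J WGD- (limma, adjusted p = 0.293). The fibroblast and matrix list stood at 0.30, -0.75 and 0.095. Dcn had a change of 1.54 in A/J WGD+ tumours, -2.22 in A/J WGD- tumours and 0.20 in NSG WGD+ tumours, a difference of 3.77 from A/J WGD- that did not pass (limma, adjusted p = 0.300). The A/J WGD- vehicle replicates 1 and 2 stand apart from the rest of the table by a rule of 3 median absolute deviations on their best correlation, so values of that arm rest partly on them. Without A/J WGD- vehicle replicate 3 the difference from that arm called 199 genes, and without A/J WGD+ YM-155 replicate 2 the difference from NSG WGD+ called 20.

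**Figure D5:**
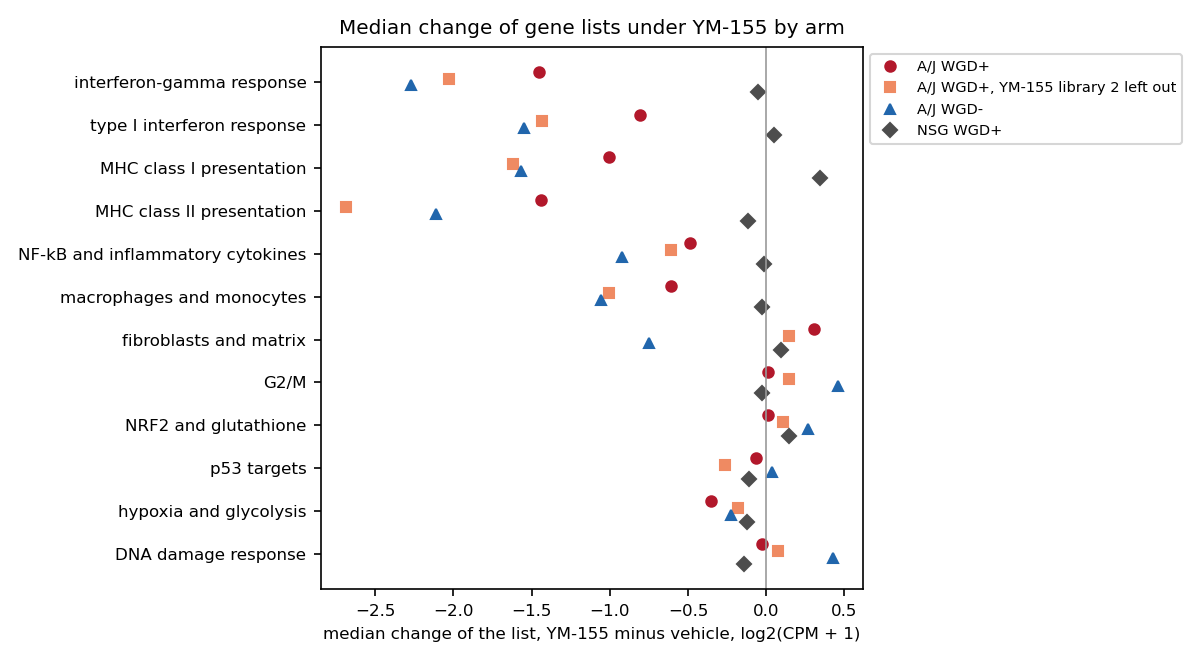
Median change of 12 gene lists under YM-155, as the difference from vehicle in log2(CPM + 1), in A/J WGD+ tumours with and without YM-155 replicate 2, in A/J WGD- tumours and in NSG WGD+ tumours. Each symbol is the median over the tested genes of a list, with no error bar, and the vertical line is 0. The interferon and MHC lists lie left of 0 in both A/J arms and between -0.12 and 0.34 in NSG WGD+ tumours.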

How the data were processed

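Bulk tumour mRNA was sequenced from TruSeq Stranded libraries, per the labels. The deposited values are log2(CPM + 1) with TMM scaling, as the name of the table and its values give. STAR 2.5.1b, edgeR and mm10 are named in the submitters' processing notes, while no source used here gives the counting tool or annotation. Of 24360 genes, 27 symbols turned into dates (at most 0.221% of reads) were left out, and 96.3% of the other 24333 matched GENCODE M21. Low values were whole reads within 0.1 reads.

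limma 3.58.1 (R 4.3.3; trend and robust) was fitted to all 24 libraries with 8 group means, after keeping 13826 genes above 1 CPM in at least 3 libraries, with Benjamini-Hochberg adjustment and a threshold of 0.05. The differences between arms were contrasts of that fit. Only the contrast of YM-155 and vehicle in A/J WGD+ tumours was tried on simulated data. Those data had the same extra spread between libraries for every gene and group and no library set apart, unlike the data here. The tables were prepared with Python 3.11.15 and pandas 2.3.3. Intervals are 95% limits. An exact permutation test of 3 against 3 libraries cannot go below 0.1.

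Named genes are the members of the compound lists, up to 10 genes each way with the smallest p among those without overlap and with a higher group mean of at least 3, and up to 2 genes of smallest p in each list. The other 33 genes with a change, and Malat1, Krt8 and Epcam, were chosen after their values were seen. The comparison, its members and the gene lists were chosen with earlier results of these data known. Alternatives were other filters, pseudocounts, normalizations, library sets, a replicate block, voom, sample weights and single libraries left out. RefSeq promoters (GRCm38.p6) were searched by letters. Some genes of the lists count in their totals and are not reported here by name.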

Additional observations from a re-analysis of the deposited data

How the results depend on the processing

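No gene was called in A/J WGD+ tumours with log2(CPM + 2), quantile normalization, only the libraries compared, only the 12 A/J libraries, the replicate block or voom on recovered reads. With no filter 1 gene of 20007 was called, with sample weights 778 (weights from 0.181 for YM-155 replicate 2 to 9.36 for vehicle replicate 3), with only the other 5 libraries 155, and with single libraries left out 0 to 12, the 12 without YM-155 replicate 2. The difference from A/J WGD- gave 0 calls with sample weights and 0 to 199 with single libraries left out, 199 without A/J WGD- vehicle replicate 3 and 1 without A/J WGD+ YM-155 replicate 3. The difference from NSG WGD+ gave 841 calls with sample weights and 0 to 20 with single libraries left out. The weights and the fit on 5 libraries were chosen after seeing the data, and the cause of these differences was not tested. Deviations of same-numbered YM-155 and vehicle libraries correlated at 0.024, 0.196 and 0.035, and those of unlike numbers at -0.179 to 0.161. With 3 libraries a group these values cannot decide whether same-numbered libraries share more than a number. The replicate block called 0 genes, with 471 at an unadjusted limma p under 0.05.

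Over 136 named genes, 1115 of 1224 values under the alternatives other than leaving a library out kept their sign and their side of the threshold, and 89 passed it. With only the other 5 libraries in the model the change took the other sign for Naip2 (-0.0055), Cdca8 (0.035), Sgo1 (0.057), Sgo2a (0.034), Slc35f2 (0.11), Cenpe (-0.0095), Herpud1 (-0.012), Jchain (-0.18), Mzb1 (-0.17), Lck (0.097) and Foxp3 (-0.14). After quantile normalization the change took the other sign for Birc2 (0.0033). With sample weights the change took the other sign for Birc5 (-0.041), Naip2 (-0.11), Herpud1 (-0.075), Dnajb1 (0.078), Mzb1 (-0.23), Tpsb2 (0.16), Lck (0.036) and Foxp3 (-0.0024). With single libraries left out the sign turned for 22 genes, whose changes ran over these ranges: Birc5 (-0.16 to 0.24), Birc2 (-0.38 to 0.23), Xiap (-0.11 to 0.064), Birc6 (-0.12 to 0.058), Naip2 (-0.19 to 0.22), Diablo (-0.26 to 0.019), Incenp (-0.11 to 0.25), Cdca8 (-0.18 to 0.035), Sgo1 (-0.27 to 0.057), Sgo2a (-0.13 to 0.034), Haspin (-0.12 to 0.43), Slc35f2 (-0.47 to 0.11), Ccng1 (-0.47 to 0.025), Cenpe (-0.025 to 0.23), Herpud1 (-0.012 to 0.29), Cox5a (-0.34 to 0.0040), Rplp0 (-0.047 to 0.31), Jchain (-0.18 to 0.86), Mzb1 (-0.17 to 0.35), Mcpt4 (-0.45 to 0.029), Lck (-0.23 to 0.097) and Foxp3 (-0.14 to 0.30). The 38 list medians moved by less than the spread between replicates in 76 of 76 values with no filter and quantile normalization, and in 225 of 228 with single libraries left out. That spread includes YM-155 replicate 2, so the rule is lenient and these counts do not show that the medians are stable. The MHC class II median, for example, went from -1.44 to -2.69 without YM-155 replicate 2 and still counts as within the spread. With 3 tumours a group and 5.11 to 7.53 M reads a library, small changes of low genes were not detectable. Larger changes of genes well above the filter did not pass either with all 6 libraries, such as 1.04 for Cd24a and -1.32 for Igf1. A gene that did not pass can therefore still differ.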

Other observations

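Markers of host tissue that a tumour piece can hold were at these levels, with 0 genes of these lists at an unadjusted p under 0.05. Skeletal muscle markers summed to 919 to 1322 CPM in YM-155 tumours, against 1021 to 1297 CPM in vehicle tumours, with a median change of -0.13, the myosin light chain gene Mylpf at 4.90, 5.41 and 4.84 in YM-155 tumours, against 5.58, 5.33 and 5.29 in vehicle tumours, and the calcium buffer gene Pvalb at 5.06, 5.10 and 4.66 in YM-155 tumours, against 5.06, 5.30 and 5.12 in vehicle tumours. Adipocyte markers summed to 46.0 to 94.1 CPM in YM-155 tumours, against 38.7 to 59.7 CPM in vehicle tumours, with a median of 0.24. The lipase gene Lpl was at 4.60, 4.88 and 4.48 in YM-155 tumours, against 4.51, 4.37 and 4.44 in vehicle tumours and the fat cell regulator gene Pparg at 1.12, 1.55 and 1.42 in YM-155 tumours, against 0.86, 1.28 and 1.30 in vehicle tumours. Endothelial markers summed to 75.6 to 175 CPM in YM-155 tumours, against 89.2 to 139 CPM in vehicle tumours, with a median of -0.13. YM-155 replicate 2 was the highest of the 6 tumours for 8 of 10, beside 26.4% of all genes tested. The receptor gene Tek was at 1.38, 1.11 and 1.26 in YM-155 tumours, against 0.49, 0.40 and 1.21 in vehicle tumours and the tight junction gene Cldn5 at 1.74, 3.86 and 2.81 in YM-155 tumours, against 3.11, 3.32 and 3.63 in vehicle tumours.

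Mast cell markers had a median of 0.056 over 5 of 7, with the protease genes Mcpt4 at 0.00, 0.66 and 0.00 in YM-155 tumours, against 0.18, 0.96 and 0.20 in vehicle tumours and Tpsb2 at 0.37, 0.47 and 0.51 in YM-155 tumours, against 0.96, 0.71 and 0.20 in vehicle tumours. Liver markers had a median of 0.33 over 9 of 10, with albumin, Alb, at 1.46, 1.35 and 3.10 in YM-155 tumours, against 0.00, 2.16 and 0.79 in vehicle tumours and Apoa1 at 0.52, 0.66 and 1.18 in YM-155 tumours, against 0.00, 0.56 and 0.00 in vehicle tumours. Of the erythroid markers 1 of 7 was tested, the haem synthesis gene Alas2, at 1.02, 0.97 and 0.77 in YM-155 tumours, against 2.0, 0.84 and 1.30 in vehicle tumours, so the list's median of -0.46 is that gene. Mammary gland markers had a median of -0.31 over 8 of 10, and the smooth muscle actin gene Acta2 was at 4.78, 5.69 and 5.13 in YM-155 tumours, against 5.51, 6.03 and 5.88 in vehicle tumours. Without YM-155 replicate 2 the median was -0.27 for skeletal muscle, 0.049 for adipocytes, -0.49 for endothelium, -0.18 for mast cells and 0.57 for liver.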
